A study of Mus musculus with 6 samples.

Results

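The neuropeptide genes of sensory neurons were examined in microinjected dorsal root ganglia (DRGs) of mice that received *NIS-lncRNA*, a long noncoding RNA studied for its part in neuropathic pain. Of the 48440 gene rows counted, 10 were taken by symbol, namely *Calca*, *Calcb*, *Tac1*, *Adcyap1*, *Nppb*, *Sst*, *Nts*, *Gal*, *Npy*, and *Vip*. These are peptides that sensory neurons make normally or after nerve injury. All 10 symbols were present, each in 1 row, and 9 of the 10 passed the filter on low counts. Only *Vip* did not.

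The 6 libraries came from wild-type male mice and fell into 2 groups of 3. The control group received AAV5-*Gfp*, an adeno-associated virus of serotype 5 that expresses green fluorescent protein. The other group received AAV5-*V1* and AAV5-*V2* together (AAV5-*V1+V2*), viruses that express the transcript variants of *NIS-lncRNA*. All mice were injected into the lumbar L3/4 DRGs on one side, without a nerve injury, and the DRGs of the injected side were sequenced. The deposited text gives both 4 and 5 weeks after microinjection as the time. The promoter of the viruses, the age of the mice, and the number of mice behind each library are not given in the sources used here, so the p-values measure the spread between libraries. Because each group received its own virus preparation, the preparation and the transcripts it carried cannot be told apart.

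Neuropeptides are cut from larger precursors by prohormone convertases, trimmed and amidated, and stored in dense core vesicles until a neuron is strongly active. In the DRG, *Calca* and *Calcb* encode the forms of CGRP (calcitonin gene–related peptide), *Tac1* encodes substance P, and *Adcyap1* encodes PACAP. These mark nociceptors, the neurons that respond to painful stimuli. *Nppb*, *Sst*, and *Nts* belong to a small class of neurons that transmits itch. *Gal* and *Npy*, which encode galanin and neuropeptide Y, and *Vip* are known for their rise in DRG neurons after a peripheral nerve is cut.

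Total counts ranged from 32025612 to 34764282 per library, and the 10 genes together took 0.0437% to 0.0640% of them. No pair of libraries of a group differed by as little as sampling noise (chi-square per degree of freedom at least 8.27). AAV5-*V1+V2* replicate 1 was the farthest from its group, with values of 32.2 and 48.9 against replicates 2 and 3. The ganglia carried the transcripts of neurons, since 18 of 18 pan-neuronal genes were tested and together held 10268 to 11263 CPM (counts scaled to a common library size by the TMM method) with AAV5-*Gfp*. With AAV5-*V1+V2* the same genes held 6505 to 9543 CPM, without overlap, and the lowest value was again that of replicate 1. The summed transcripts of macrophages, B cells, and T cells did not overlap either, and were higher with AAV5-*V1+V2*. Values of the 3 libraries of a group are given below in the order of replicates 1, 2, and 3. CPM is a share of a library, so fewer neurons, less RNA per neuron, and more RNA from other cells cannot be told apart in such bulk tissue.

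When levels were set per kilobase of exon (RPKM, the CPM divided by the exon length in kilobases), *Calca* was the most abundant of the 10 genes, at 243 ± 12.1 RPKM (SD, n = 3) with AAV5-*Gfp*. It alone supplied 65.5% to 67.1% of the counts of the 10 genes in each library. *Calcb* followed at 48.6 ± 3.51 RPKM (SD, n = 3) and *Tac1* at 25.6 ± 0.717 (SD, n = 3). *Nts* (11.0 RPKM) and *Adcyap1* (9.93 RPKM) formed the middle of the range, ahead of *Gal* (5.15 RPKM). *Npy* and *Nppb* (2.74 RPKM) followed, and *Sst* (1.46 RPKM) had the lowest level of the genes tested. Among the AAV5-*Gfp* libraries, each step of this order exceeded the spread between libraries, except that *Npy* and *Nppb* overlapped. With AAV5-*V1+V2* the order of the means was the same, but the lower middle of it closed up. *Adcyap1* (8.19 ± 1.37 RPKM; SD, n = 3) overlapped *Gal* (6.97 ± 0.775; SD, n = 3), and *Gal* overlapped *Npy* (5.62 ± 2.37; SD, n = 3).

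**Figure D1:**
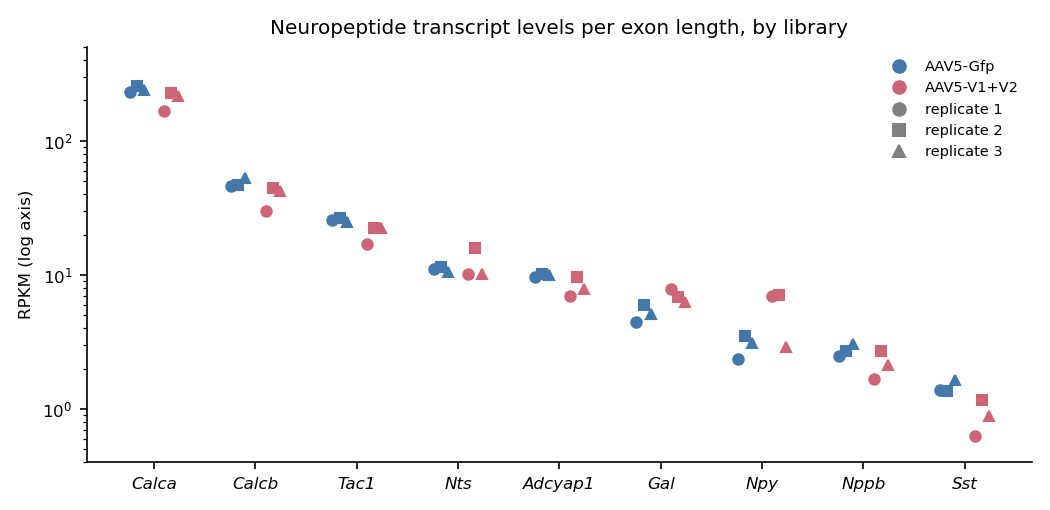
Level of each neuropeptide transcript in RPKM (log axis), with a point for each library, blue for AAV5-*Gfp* and red for AAV5-*V1+V2*, and marker shapes for replicates 1 to 3. *Calca* stood far above the others, and the red points of *Adcyap1*, *Gal*, and *Npy* overlapped where the blue ones were in separate steps.

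The question for these genes was whether overexpression of *NIS-lncRNA* in uninjured DRGs was accompanied by a change in peptide transcripts. None of the 9 genes passed the threshold, set at 0.05 for the p-value of the quasi-likelihood test of edgeR after Benjamini-Hochberg adjustment over all genes. Of the 18593 genes tested, 15.3% passed it, 10.1% on the higher and 5.27% on the lower side. At an unadjusted p under 0.05 there were 3 genes on the lower side (*Tac1*, *Adcyap1*, and *Sst*) and 2 on the higher side (*Gal* and *Npy*), where 15.5% and 19.2% of all genes tested were found. DESeq2 and limma-voom also called 0 of the 9. In 5 of the 9 genes the libraries of the groups did not overlap in CPM (4 lower and 1 higher), and 45.4% of all genes tested were separated in this way, 22% lower and 23.4% higher. The median log2 fold change was -0.28 over the 9 genes and -0.0003 over all genes tested. The log2 fold changes were negative for 6 genes and positive for 3. The fold differences of the 9 genes ran from 0.616 to 1.87. In a test on simulated counts of 18593 genes, 33.2% of the genes with a 1.5-fold change and 64% of those with a 2-fold change were recovered. Only 200 genes were changed there, whereas 2852 were called in the data. The adjustment depends on that number, so these shares hold for the simulated setting and not for the 9 genes. The libraries of AAV5-*V1+V2* varied more for 8 of the 9 genes, with *Gal* as the exception, and with coefficients of variation of 11.1% to 42.2% against 2.47% to 19.7%.

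**Figure D2:**
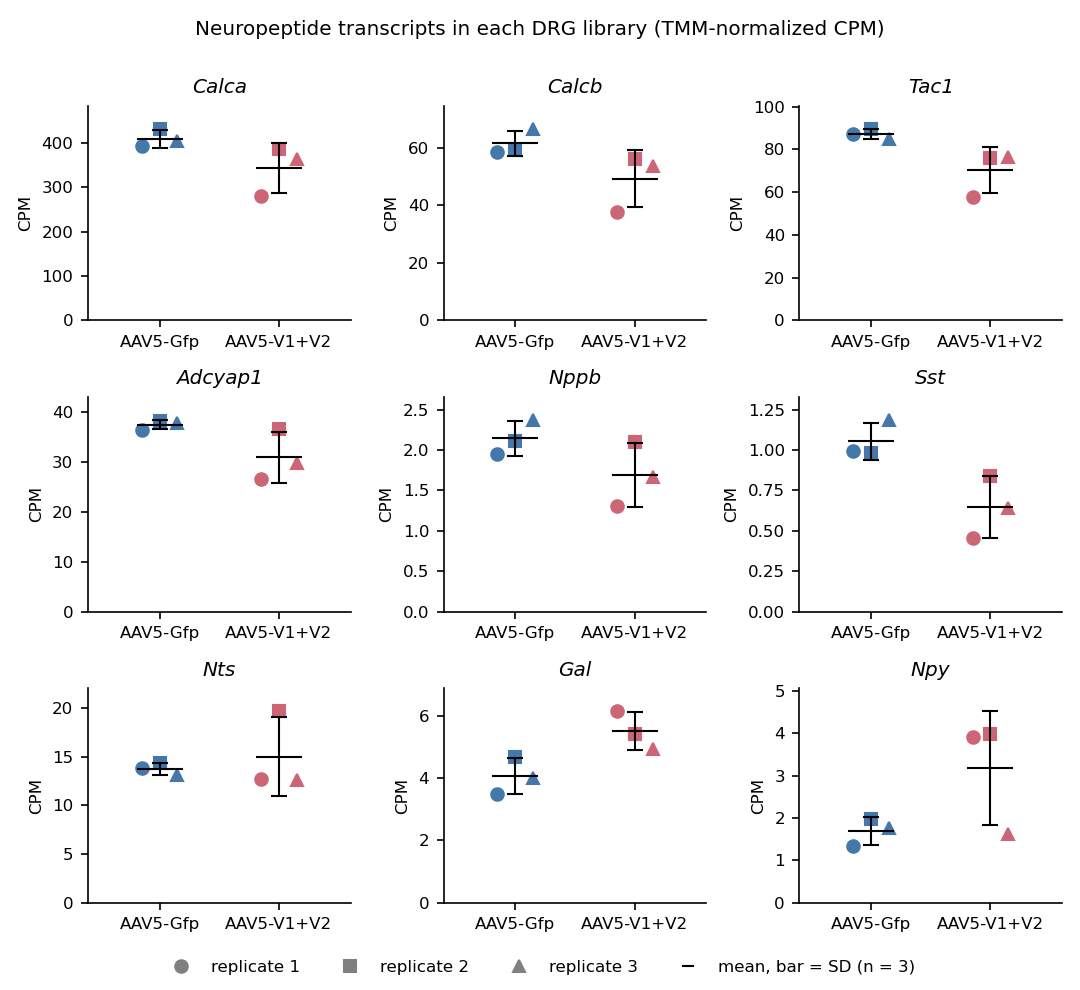
TMM-normalized CPM of the 9 tested neuropeptide genes in each library, with marker shapes for replicates 1 to 3, a horizontal bar for the mean, and error bars for the SD (n = 3). Replicate 1 of AAV5-*V1+V2* was the lowest point for *Calca*, *Calcb*, *Tac1*, *Adcyap1*, *Nppb*, and *Sst*, whereas *Gal* lay above every AAV5-*Gfp* library in all 3.

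The peptides of nociceptors had similar differences, with log2 fold changes between -0.32 and -0.26. *Calca* (ENSMUSG00000030669.13, chr7:114631478-114636357, minus strand, GRCm38) was counted at 12646, 14940, and 12563 reads in the controls and at 9179, 12829, and 12426 reads after AAV5-*V1+V2*. In CPM these were 392, 431, and 403 against 279, 385, and 362. Every AAV5-*V1+V2* library was thus below every AAV5-*Gfp* library after normalization, although replicate 2 was close to the lowest control and the raw counts overlapped. The log2 fold change was -0.26 (standard error [SE] 0.13, 95% interval -0.55 to 0.04), with an adjusted p of 0.199 by edgeR's test. *Calca* also encodes calcitonin, made from an alternative transcript in the thyroid, and the counts per gene do not separate the products.

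*Calcb*, the second CGRP gene, lies on the same chromosome (ENSMUSG00000030666.11, chr7:114718643-114723365, plus strand). It had 58.4, 59.2, and 66.5 CPM in the controls and 37.7, 56.0, and 53.5 CPM after AAV5-*V1+V2*. The groups did not overlap, and the log2 fold change of -0.32 (SE 0.15, 95% interval -0.67 to 0.02) did not pass (adjusted p = 0.164 by edgeR's test). The ratio of *Calca* to *Calcb* counts was 6.68 ± 0.612 (SD, n = 3) with AAV5-*Gfp* and 7.01 ± 0.330 (SD, n = 3) with AAV5-*V1+V2*, with overlap. The annotated transcripts of both genes shared 12 windows of 50 bases, which were 0.715% of those of *Calca* and 0.952% of those of *Calcb*, and no window of 75 bases.

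*Tac1*, the substance P gene (ENSMUSG00000061762.12, chr6:7554879-7565834, plus strand), had the smallest adjusted p of the 9. It had 87.1, 89.6, and 84.8 CPM in the controls and 57.9, 76.2, and 76.7 CPM after AAV5-*V1+V2*. The groups did not overlap in CPM or in raw counts. Its log2 fold change was -0.31 (SE 0.11, 95% interval -0.57 to -0.05), with an adjusted p of 0.0976 by edgeR's test. *Adcyap1*, the PACAP gene (ENSMUSG00000024256.7, chr17:93199017-93206537, plus strand), had 36.5, 38.3, and 37.7 CPM in the controls and 26.5, 36.6, and 29.7 CPM after AAV5-*V1+V2*. Here replicate 2 lay within the control range, and the log2 fold change was -0.28 (SE 0.12, 95% interval -0.55 to -0.002, adjusted p = 0.142 by edgeR's test). Each of these genes passed in only 1 of the fits without 1 library. *Tac1* had an adjusted p of 0.0469 by edgeR's test without AAV5-*V1+V2* replicate 1, though with a smaller log2 fold change of -0.19. *Adcyap1* had one of 0.0488 without AAV5-*V1+V2* replicate 2, with a log2 fold change of -0.40. Of all genes, 15.6% and 6.19% passed in these fits. In the other fits without 1 library the adjusted p was 0.0689 to 0.235 for *Tac1* and 0.232 to 0.294 for *Adcyap1*.

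The peptides of itch neurons were less abundant, and their counts were small. *Nppb*, which encodes the natriuretic peptide that relays itch to the spinal cord (ENSMUSG00000029019.8, chr4:147985788-147987205, plus strand), was counted at 63, 73, and 74 reads in the controls and at 43, 70, and 57 reads after AAV5-*V1+V2*. The groups overlapped, and the log2 fold change was -0.34 (SE 0.21, 95% interval -0.84 to 0.16, adjusted p = 0.296 by edgeR's test). *Sst*, the somatostatin gene (ENSMUSG00000004366.4, chr16:23889573-23890958, minus strand), was counted at 32, 34, and 37 reads in the controls and at 15, 28, and 22 reads after AAV5-*V1+V2*. This was the most negative log2 fold change of the 9, -0.70 (SE 0.27, 95% interval -1.33 to -0.07), and the groups did not overlap. It did not pass (adjusted p = 0.115 by edgeR's test). *Nts*, which encodes neurotensin (ENSMUSG00000019890.4, chr10:102481756-102490486, minus strand), went with neither of these genes. It had 13.8, 14.4, and 13.1 CPM in the controls and 12.7, 19.7, and 12.6 CPM after AAV5-*V1+V2*. Only replicate 2 was above the controls, and the others were just below them. The log2 fold change of *Nts* was 0.12 (SE 0.18, 95% interval -0.29 to 0.54, adjusted p = 0.648 by edgeR's test), and it was -0.11 without that replicate.

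The injury-induced peptides lay on the other side. *Gal* (ENSMUSG00000024907.7, chr19:3409915-3414544, minus strand) was counted at 113, 162, and 125 reads in the controls and at 202, 180, and 169 reads after AAV5-*V1+V2*. In CPM these were 3.50, 4.67, and 4.01 against 6.14, 5.41, and 4.93, without overlap. The difference amounted to 1.35-fold (95% interval 1.05 to 1.75), with a log2 fold change of 0.43 (SE 0.16) and an adjusted p of 0.101 by edgeR's test. The count of *Gal* per count of *Calca* was 0.00894, 0.0108, and 0.00995 in the controls and 0.0220, 0.0140, and 0.0136 after AAV5-*V1+V2*. That ratio had to be higher in each AAV5-*V1+V2* library, since *Gal* was higher and *Calca* lower in each. It is no separate observation.

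*Npy* (ENSMUSG00000029819.6, chr6:49822710-49829507, plus strand) was counted at 43, 69, and 55 reads in the controls and at 129, 133, and 56 reads after AAV5-*V1+V2*. Replicates 1 and 2 stood at 231% and 236% of the AAV5-*Gfp* mean in CPM, and replicate 3 at 96.3% of it, within the control range. The log2 fold change of 0.90 (SE 0.35, 95% interval 0.08 to 1.73) was the largest of the 9 and did not pass (adjusted p = 0.118 by edgeR's test). Without replicate 3 *Npy* had a log2 fold change of 1.23 and an adjusted p of 0.0130 by edgeR's test. In that fit 20.7% of all genes passed, against 15.3% with all 6 libraries. *Npy* passed in no other fit without 1 library, and its adjusted p was 0.243 and 0.268 without AAV5-*V1+V2* replicate 1 or 2. Sympathetic neurons also make *Npy*. Their defining genes *Dbh*, *Phox2a*, and *Hand2* failed the filter on low counts, with means of at most 0.0400 CPM in either group. Of that list of 7 genes, 3 were tested and 0 were called, with *Th* at -0.35, *Slc18a2* at -0.19, and *Slc6a2* at -0.16 on the log2 scale. *Th* passed without AAV5-*V1+V2* replicate 3 (-0.44, adjusted p = 0.0323 by edgeR's test). The summed level of the list was 43.2 to 46.0 CPM with AAV5-*Gfp* and 32.4 to 39.2 CPM with AAV5-*V1+V2*.

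*Vip* (ENSMUSG00000019772.5, chr10:5639218-5647617, plus strand) was not detectable at this depth. It had 2 counts in AAV5-*Gfp* replicate 2, 1 count in AAV5-*V1+V2* replicate 3, and 0 in the other 4 libraries. A count of 0 allows up to 3 counts, which is at most 0.0937 CPM in these 4 libraries, counting error only. No fold is given, since both groups were at or under this floor.

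**Figure D3:**
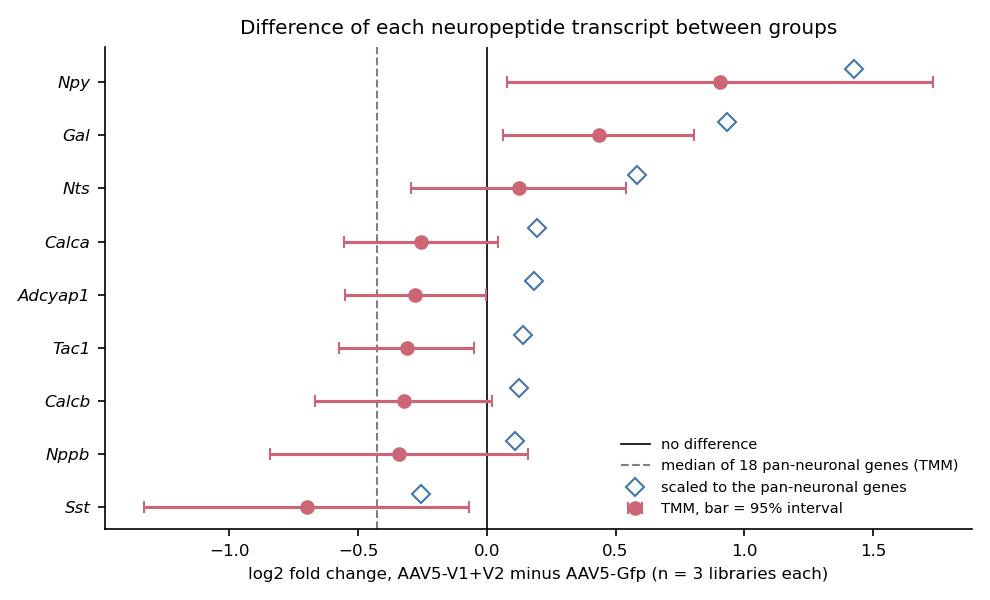
Log2 fold change of each tested neuropeptide gene in the AAV5-*V1+V2* group relative to AAV5-*Gfp* (3 libraries each), with the 95% interval in red, and open diamonds for the same difference when libraries were scaled to the pan-neuronal genes. The intervals of the 6 genes with negative values all held the dashed line, the median of the 18 pan-neuronal genes at -0.43, whereas those of *Nts*, *Gal*, and *Npy* lay to its right.

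Because the peptides come from neurons, their differences were set beside those of pan-neuronal genes. Of the 18 such genes, 4 were lower and 0 were higher with an adjusted p under 0.05 (0 higher also at an unadjusted p under 0.05 and with DESeq2), and the median log2 fold change was -0.43. The 4 were *Rbfox3*, which encodes the neuronal nuclear protein NeuN (-0.93), *Syt1*, the calcium sensor of vesicle release (-0.73), the cytoskeletal gene *Map2* (-0.56), chosen after its values were seen, and the sensory transcription factor gene *Pou4f1* (-0.43). DESeq2 called 12 of the 18 lower. None of the 4 named passed in a fit that lacked any 1 of the AAV5-*Gfp* libraries, nor, for *Rbfox3* and *Syt1*, in one that lacked AAV5-*V1+V2* replicate 2, nor, for *Pou4f1*, in one that lacked replicate 3. Without AAV5-*Gfp* replicate 1, 2, or 3, only 1.67%, 0.0634%, and 0.0792% of all genes passed, against 15.3% with all 6 libraries. Without AAV5-*V1+V2* replicate 2 the share was 6.19%. Failing in these fits therefore does not set a gene apart from most others that were called. The means of the pan-neuronal genes on the log2 CPM scale were 8.21, 8.18, and 8.34 in the controls and 7.46, 7.90, and 7.97 after AAV5-*V1+V2*. AAV5-*V1+V2* replicate 1 was the lowest of the 6 libraries, as it was for all 6 peptide genes with a negative log2 fold change. *Calca*, *Calcb*, *Tac1*, and *Adcyap1* were there at 68.3%, 61.5%, 66.4%, and 70.7% of their AAV5-*Gfp* means. Without that library their log2 fold changes were -0.12, -0.16, -0.19, and -0.17, and those of *Nppb*, *Sst*, *Nts*, *Gal*, and *Npy* were -0.18, -0.50, 0.23, 0.35, and 0.73.

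Scaling the libraries to equal means of the pan-neuronal genes moved the median log2 fold change of all genes from -0.0003 to 0.48. On that scale *Calca* (0.20), *Adcyap1* (0.18), *Tac1* (0.14), *Calcb* (0.13), and *Nppb* (0.11) had positive log2 fold changes, so that their direction depended on the scaling. *Sst* had -0.26. None of these 6 genes passed, with adjusted p-values of at least 0.153 by edgeR's test. *Gal* (0.93, adjusted p = 0.0450 by edgeR's test) and *Npy* (1.43, adjusted p = 0.0471) passed on this scale, and *Nts* (0.58, adjusted p = 0.0645) did not. Here 25.8% of all genes passed, 99.1% of them higher. Relative to that shifted median of all genes, *Gal* was at 0.45, *Npy* at 0.95, *Nts* at 0.11, and *Calca* at -0.28, close to their values on the TMM scale.

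**Figure D4:**
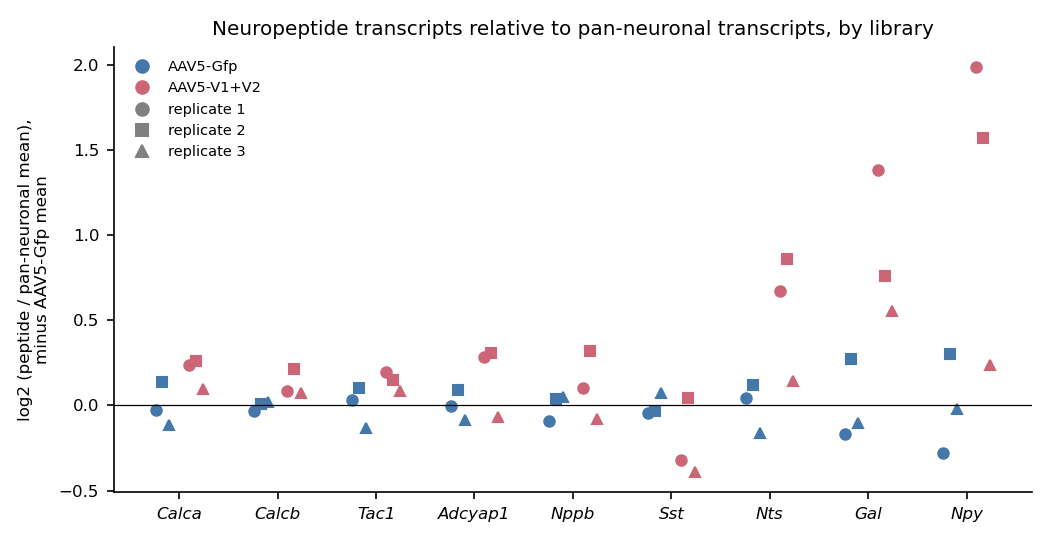
Log2 ratio of each neuropeptide transcript to the mean of the pan-neuronal transcripts in each library, with the AAV5-*Gfp* mean of each gene set to 0, blue for AAV5-*Gfp*, red for AAV5-*V1+V2*, and marker shapes for replicates 1 to 3. All 3 AAV5-*V1+V2* libraries lay above all AAV5-*Gfp* libraries for *Calcb*, *Nts*, and *Gal*, by a mean of 0.12, 0.56, and 0.90. Scaling to the pan-neuronal genes put the median log2 fold change of all genes at 0.48, and *Calcb* was below this. The share of all genes separated in this way on the scale of the figure was not counted.

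The promoters are shown as a description of the genes, and a link to the differences was not tested. RefSeq promoter sequences (GRCm38.p6) covered 9 of the 10 genes with 10 start sites. *Calcb* had no entry. In the 250 bases before each start site, the core of the cAMP response element (CRE), TGACG on either strand, was found for *Calca*, *Tac1*, *Adcyap1*, *Sst*, *Nts*, and *Vip*, which were 7 of the 10 windows, since the 2 windows of *Adcyap1* share 1 site. Of all 32851 promoter windows of this length, 17.8% held it. The complete element, TGACGTCA, which contains the core on both strands, was found for *Sst* alone, and in 1.55% of all windows. The AP-1 site, TGANTCA, was found for *Nts* alone and in 6.75% of all windows. The stretches below run 5′ to 3′ along the gene over the 100 bases before the start site, with cores in capitals. For *Tac1* and *Sst*, where GENCODE M21 starts the gene upstream of the RefSeq start, 30 bases around the core are given. *Calca*, *Tac1*, *Adcyap1*, and *Sst* are the peptides with negative log2 fold changes and a core in this stretch, and *Gal* and *Npy* are the genes with the largest positive ones. Other genes break this split. *Nts* has a core, at -166, and a log2 fold change of 0.12, and *Nppb* has no core and a log2 fold change of -0.34.
*Calca*, chr7:114636358-114636457, minus strand: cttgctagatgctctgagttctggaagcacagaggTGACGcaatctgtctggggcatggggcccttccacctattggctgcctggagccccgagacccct
*Tac1*, chr6:7555001-7555030, plus strand: acgtggctctacaggctCGTCAcgcctgag
*Adcyap1*, chr17:93198917-93199016, plus strand: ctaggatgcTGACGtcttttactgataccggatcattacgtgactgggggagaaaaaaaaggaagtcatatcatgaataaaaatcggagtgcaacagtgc
*Sst*, chr16:23890875-23890904, minus strand: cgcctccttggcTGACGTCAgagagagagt
*Gal*, chr19:3414545-3414644, minus strand: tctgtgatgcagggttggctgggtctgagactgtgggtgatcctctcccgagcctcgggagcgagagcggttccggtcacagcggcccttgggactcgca
*Npy*, chr6:49822610-49822709, plus strand: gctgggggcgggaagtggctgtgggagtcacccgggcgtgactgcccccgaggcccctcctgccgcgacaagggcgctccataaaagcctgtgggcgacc
Counted back from the base before the start site as -1, the cores began at -65 in *Calca*, -43 in *Tac1*, and -91 in *Adcyap1*, and the complete element began at -48 in *Sst*. No core was found in the 250 bases before the start of *Gal*, *Npy*, or *Nppb*. A match is a match of letters, and binding was not measured here.

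Peptides act on receptors, and 25 of the 29 receptor genes listed for the 10 peptides were tested, with 1 higher, 1 lower, and a median log2 fold change of -0.03. *Ramp1*, which encodes the protein that joins the calcitonin receptor–like receptor to form the CGRP receptor, rose from 5.73 ± 1.17 to 10.1 ± 1.59 CPM (SD, n = 3 each). Its libraries held 7.03, 5.40, and 4.77 CPM in the controls and 11.6, 8.44, and 10.3 CPM after AAV5-*V1+V2*, without overlap. The log2 fold change was 0.82 (SE 0.18, adjusted p = 0.0301 by edgeR's test). Its partner *Calcrl*, chosen after its values were seen, had 29.8 and 32.3 CPM and a log2 fold change of 0.11 (adjusted p = 0.437 by edgeR's test). *Npr2*, a receptor of the natriuretic family that binds chiefly the C-type peptide, fell from 48.7 ± 2.36 to 36.5 ± 3.71 CPM (SD, n = 3 each), with a log2 fold change of -0.42 (SE 0.09, adjusted p = 0.0278 by edgeR's test). *Vipr1*, a receptor for both VIP and PACAP, had the next smallest adjusted p, 0.0562 by edgeR's test, at a log2 fold change of 1.03. It passed without AAV5-*V1+V2* replicate 3 (1.17, adjusted p = 0.0462) and on the pan-neuronal scale (1.53, adjusted p = 0.0399). Of all genes, 20.7% and 25.8% passed in these fits, 99.1% of the latter higher. On the pan-neuronal scale *Npr2* was at 0.047 and did not pass (adjusted p = 0.783 by edgeR's test), while *Ramp1* did (0.0311). Neither *Ramp1* nor *Npr2* passed without any 1 of the AAV5-*Gfp* libraries, where the adjusted p was 0.0513 to 0.114 for *Ramp1* and 0.0695 to 0.112 for *Npr2* by edgeR's test, nor did *Npr2* without AAV5-*V1+V2* replicate 2 (0.0522). At most 1.67% of all genes passed without an AAV5-*Gfp* library. *Ramp1* is also expressed outside neurons, among others by immune cells. The summed macrophage list was 108 to 152 CPM with AAV5-*Gfp* and 425, 311, and 232 CPM in AAV5-*V1+V2* replicates 1, 2, and 3. Its order among these replicates differed from that of *Ramp1*. The part of immune cells in the result was not tested.

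Of the genes that process and store peptides, 16 had negative log2 fold changes and 3 had positive ones. Of 19 tested, 3 were lower and 0 were higher (0 higher also at an unadjusted p under 0.05 and with DESeq2), the median log2 fold change was -0.36, and 16 of the 19 were lower in every AAV5-*V1+V2* library than in every AAV5-*Gfp* library, against 22% of all genes tested. The 3 were *Ptprn2*, a membrane protein of dense core vesicles (-0.60), and *Cadps2* (-0.49) and *Cadps* (-0.53), which prime these vesicles for release. Their adjusted p-values by edgeR's test were 0.0314, 0.0358, and 0.0444. DESeq2 called 9 of the 19 lower, and none passed in a fit that lacked any 1 of the AAV5-*Gfp* libraries or AAV5-*V1+V2* replicate 2. Few genes of any kind did so (at most 1.67% without an AAV5-*Gfp* library and 6.19% without that replicate). On the pan-neuronal scale 0 of the 19 were lower, and the log2 fold changes of *Ptprn2*, *Cadps2*, and *Cadps* were -0.14, -0.03, and -0.08.

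Other peptides and peptide-like ligands were mostly at low counts, and 12 of the 26 listed were tested. The only one called was *Nucb2*, the precursor of nesfatin, which rose from 12.7 ± 0.220 to 15.8 ± 0.775 CPM (SD, n = 3 each; log2 fold change 0.32, SE 0.08, adjusted p = 0.0402 by edgeR's test). It did not pass in the fit with a replicate block, with the loosest filter on low counts, or when any 1 library other than AAV5-*V1+V2* replicate 1 was left out. Where an AAV5-*Gfp* library was left out, at most 1.67% of all genes passed. *Tac4*, a relative of *Tac1*, had a log2 fold change of 0.68, and *Pnoc*, which encodes nociceptin, one of -0.74, with adjusted p-values of 0.105 and 0.112 by edgeR's test. The median over the 12 genes was -0.22.

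Markers of the neuron classes that make these peptides were compared as well. Of 14 tested, 3 were lower and 0 were higher (0 higher also at an unadjusted p under 0.05 and with DESeq2), with a median log2 fold change of -0.32. These were *Htr1f*, a serotonin receptor (-0.91), and *Il31ra*, an interleukin-31 receptor (-0.46), both of itch neurons, and *Fam19a1*, which encodes a secreted protein (-0.65). *Htr1f* and *Il31ra* mark the class that makes *Nppb* and *Sst*, which had log2 fold changes of -0.34 and -0.70 and were not called. The class was not lower throughout, as its peptide gene *Nts* had 0.12. *Osmr*, the 1 gene of the 14 with a positive value, also had 0.12, and neither was called. None of the 3 passed in a fit that lacked any 1 of the AAV5-*Gfp* libraries or AAV5-*V1+V2* replicate 2, nor did *Il31ra* without replicate 1 of the latter, with limma-voom (adjusted p = 0.0514), or with libraries scaled to their totals (0.0525). All genes passed at a share of at most 1.67% without an AAV5-*Gfp* library and of 6.19% without AAV5-*V1+V2* replicate 2. On the pan-neuronal scale *Il31ra* was at 0.00036, and of the 14 genes 1, *Htr1f*, was called lower and 1 higher. The heat and capsaicin channel gene *Trpv1*, of peptidergic neurons, and *Mrgprd*, of nonpeptidergic neurons, both chosen after their values were seen, had -0.31 and -0.35 and did not pass.

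Of 11 injury markers tested, 3 were higher and 0 were lower (1 lower at an unadjusted p under 0.05 and 0 with DESeq2), and the median log2 fold change was 0.03. *Atf3*, a transcription factor gene switched on in axotomized neurons, rose from 12.9 ± 0.757 to 22.2 ± 4.97 CPM (SD, n = 3 each; log2 fold change 0.78, SE 0.17). *Ecel1*, a protease gene induced by nerve damage, had a log2 fold change of 1.07 (SE 0.28), and *Csf1*, which encodes a growth factor of macrophages, one of 0.58 (SE 0.13). Their adjusted p-values by edgeR's test were 0.0269, 0.0432, and 0.0301, and none passed in a fit that lacked any 1 of the AAV5-*Gfp* libraries or AAV5-*V1+V2* replicate 2, nor did *Ecel1* without replicate 1 of the latter. In the fits without an AAV5-*Gfp* library at most 1.67% of all genes passed, and 6.19% did without AAV5-*V1+V2* replicate 2. *Gap43* and *Sox11*, which regenerating neurons raise, were chosen after their values were seen and had -0.26 and -0.23, so the markers did not move as one group. *Atf3* was lowest of the AAV5-*V1+V2* libraries in replicate 3, at 16.5 CPM against 24.7 and 25.5. Replicate 3 was also the lowest of them for *Npy* and *Gal*. The same held for the summed macrophage list (425, 311, and 232 CPM) and B and plasma cell list (433, 307, and 274 CPM). It held for the T cell list as well. The summed injury markers were instead lowest in replicate 1 (226, 274, and 244 CPM). A low value in replicate 3 was thus not particular to injury markers, and a link of *Npy* and *Gal* to them was not tested.

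**Figure D5:**
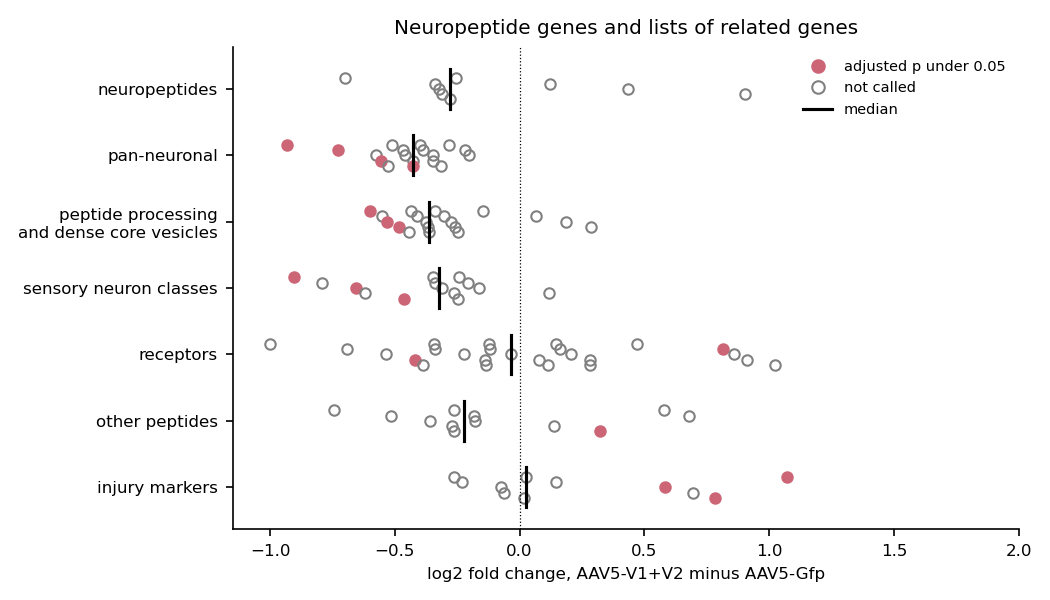
Log2 fold changes of the genes tested in 7 groups, the neuropeptides and 6 lists of related genes, with filled points for genes that passed, open points for the others, and black lines for medians. The neuropeptides have no filled point, and their median of -0.28 lies between that of the pan-neuronal genes at -0.43 and 0.

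Markers of other cells moved as follows between the groups. Of 8 macrophage genes 7 were higher (among them *C1qa* at 1.93, *Aif1* at 1.66, and *Adgre1* at 1.66), of 8 B and plasma cell genes 8 (*Jchain* at 6.41, *Ms4a1* at 5.49, *Mzb1* at 5.20), of 8 T cell genes 7 (*Cd4* at 3.33, *Cd3e* at 3.88, *Cd2* at 3.36), and of 6 vascular genes 1 (*Pecam1* at 0.88). Apart from *Jchain*, none of these 10 genes passed when AAV5-*Gfp* replicate 2 or 3 was left out, and neither did *Adgre1* and *Pecam1* when replicate 1 was. Only 12 and 15 of all genes passed without replicate 2 or 3, and 316 without replicate 1. No gene of satellite glia (8 tested, 1 at an unadjusted p under 0.05) or Schwann cells (8 tested, 1 at an unadjusted p under 0.05) was called by edgeR (all 6 libraries, TMM scale, no block) or by DESeq2. *Kcnj10* passed with a replicate block (adjusted p = 0.0433 by edgeR's test) and *Cdh19* without AAV5-*V1+V2* replicate 3 (log2 fold change -0.38, adjusted p = 0.0285). Of all genes, 18.6% and 20.7% passed in these fits. On the pan-neuronal scale 4 satellite glia genes and 2 Schwann cell genes were called higher, where 25.8% of all genes were called. *Kcnj10*, *Cdh19*, and *Fabp7* of satellite glia had -0.29, -0.24, and -0.08, and *Egr2* and *Scn7a* of Schwann cells had 0.25 and -0.29. Of the central nervous system list, only *Mobp* (-0.45) and *Gad1* (0.03) were tested, and its 6 genes together held at most 2.47 CPM. Whether the immune transcripts bear on the values of the peptide genes was not tested.

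The gene whose log2 CPM was most like that of a peptide gene over the 6 libraries, among 14686 candidates, was taken for 8 peptide genes, with a Pearson's r of 0.986 to 0.999. These were *Acat2* for *Calca*, *Cdipt* for *Tac1*, *Gm37795* for *Adcyap1*, *Gpat4* for *Nppb*, *Fbxo41* for *Sst*, *Rdh14* for *Nts*, *Prpf3* for *Gal*, and *Senp3* for *Npy*. With 6 libraries in 2 groups and so many candidates, these values are a description of these libraries. None of these 8 genes was called between the groups (adjusted p at least 0.0897 by edgeR's test).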

How the data were processed

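RNA was sequenced from microinjected DRGs in 6 stranded total RNA libraries. The deposited values are raw read counts for each gene symbol, which the authors did not normalize. The labels name the build GRCm38 (mm10). The aligner, the counter, the annotation, and the use of strand are not given in the sources used here. Counts were filtered (filterByExpr), normalized by TMM, and tested across all genes with edgeR 4.0.16 (glmQLFit, glmQLFTest) in R 4.3.3, without a covariate. Standard errors were computed from the coefficient and F. Exon lengths came from GENCODE M21, where 46283 of the 48440 symbols matched, and no member overlapped another gene. The test was checked on simulated counts (5 draws, 200 changed genes, 9.93% false calls). That share of false calls was above the 0.05 set as the threshold, so genes called close to the threshold are less certain than it implies. The members, the lists, and the rule for named genes (all members, at most 3 genes of each list by adjusted p, and the most alike gene of each member) were chosen with earlier results of these data known. Alternatives used limma 3.58.1 and DESeq2 1.42.0. Protein sequences were not analysed here, and a few genes that the rule would name are not reported here.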

Additional observations from a re-analysis of the deposited data

How the results depend on the processing

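Over 18 alternatives, the 9 tested peptide genes gave 162 values, of which 145 kept their direction and their side of the threshold, 11 came to pass it, and 6 changed sign. The number of peptide genes called was 0 higher and 0 lower. With libraries scaled to the pan-neuronal genes it was 2 higher and 0 lower, at an adjusted p under 0.1 it was 0 higher and 1 lower, at an unadjusted p under 0.05 it was 2 higher and 3 lower, and with one replicate left out at a time it was 0 to 1 in either direction. All genes numbered 1872 higher and 980 lower. They were 4755 and 41 on the pan-neuronal scale, 1488 lower with DESeq2, 2898 and 2030 at an adjusted p under 0.1, and 3577 and 2878 at an unadjusted p under 0.05. Leaving out one replicate gave between 12 and 2474 higher and between 0 and 1446 lower. The smallest numbers came without AAV5-*Gfp* replicate 1, 2, or 3, with 316, 12, and 15 genes called in either direction. The share of higher genes among those called was 65.6%, 74.6% with libraries scaled to their totals, and 99.1% on the pan-neuronal scale. The cause was not tested. The thresholds move the numbers by their construction.

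The pan-neuronal scale, by its construction, raises all log2 fold changes by about the shift of the median of all genes (0.48). Negative values that changed sign were those of *Calca* (0.20), *Calcb* (0.13), *Tac1* (0.14), *Adcyap1* (0.18), *Nppb* (0.11), *Npr2* (0.047), *Il31ra* (0.00036), *Pou4f1* (0.038), *Kcnj10* (0.18), *Cdh19* (0.22), *Fabp7* (0.39), *Scn7a* (0.16), *Th* (0.10), *Slc18a2* (0.29), *Slc6a2* (0.37), *Mobp* (0.079), *Acat2* (0.21), *Cdipt* (0.21), *Gm37795* (0.16), and *Gpat4* (0.37). *Rdh14* changed sign with upper quartile normalization (-0.0044). With one replicate left out at a time, *Nts* ranged from -0.11 (without AAV5-*V1+V2* replicate 2) to 0.24, *Gad1* from -0.055 to 0.10, *Mobp* from -0.81 to 0.30, *Slc6a2* from -0.94 to 0.35, and *Rdh14* from -0.048 to 0.067.

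When the replicate block entered the edgeR fit, 0 peptide genes were called, while the genes lower numbered 7 of 19 for peptide processing and 10 of 18 for the pan-neuronal list, and 18.6% of all genes were called against 15.3%. Deviations from the group means correlated at 0.0823, 0.0971, and 0.170 across 14732 genes for replicate numbers 1, 2, and 3, so the samples were taken to share only a number, although every library correlated best with its own number, a hint from the data and not from the design. At this depth *Sst* and *Nppb* rest on fewer than 80 reads per library.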
